A study of Homo sapiens with 14 samples.

Results

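Proximal T cell receptor signaling was followed through 9 genes, LCK, ZAP70, LAT, LCP2, FYB1, GRAP2, VAV1, PLCG1 and TESPA1, of 58440 genes in the files. The genes were chosen by name, with earlier results of these data known, and each was found by its identifier. RNA was sequenced from mixtures of HEK-293T cells, a human embryonic kidney line that carries the SV40 large T antigen, and Jurkat cells, a human T cell leukemia line. Mixtures held 100, 80, 60, 50, 40, 20 or 0% HEK cells, with Jurkat cells making up the rest of 1000000 cells, and the labels name no stimulation or treatment. Each of the 7 conditions was represented by 2 libraries. They are technical replicates per the labels, so p-values measure the spread between libraries and not between cultures. The same amount of ERCC spike-in RNA was added to the mRNA of each mixture. All cells came from 1 line of each type, so a difference between lines is a difference between these lines and not between T cells and kidney cells at large.

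When a T cell receptor binds its ligand, the kinase LCK phosphorylates the receptor's CD3 and zeta chains, and the kinase ZAP70 docks on them. ZAP70 then phosphorylates the membrane scaffold LAT and the cytosolic adaptor LCP2 (SLP-76), which are bridged by the adaptor GRAP2 (GADS). This platform holds the exchange factor VAV1, the lipase PLCG1, which makes the second messengers that release calcium, and the adaptor FYB1 (ADAP), which leads to integrins. TESPA1 is a later described component that takes part in receptor signaling during thymocyte development.

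Both lines carried the markers of their labels. The 8 T cell markers, the CD3 chains among them, summed to between 918 and 1057 CPM (gene counts scaled to a library total of 1000000, spike-ins left out) in pure Jurkat libraries and to between 1.45 and 3.39 CPM in pure HEK libraries. Of the 8 epithelial and kidney markers, all were lower in Jurkat, and 5 were at 3 counts or fewer in both pure Jurkat libraries. None of 6 myeloid markers was measured well enough to be tested. Of 6 B cell markers, CD79A was higher in Jurkat, at 5.15 and 6.93 CPM, and of 6 NK cell markers NKG7 was higher in Jurkat, at 4.03 and 5.16 CPM. Libraries held from 4468822 to 28303668 gene counts, and 3 counts amounted to between 0.106 and 0.671 CPM. Pure Jurkat libraries were the shallowest. The libraries of the 50% mixture differed most from each other, by a chi-square of 129 per degree of freedom over genes against 18.4 to 55.3 in the other conditions.

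In the pure lines, 8 of the 9 genes were higher in Jurkat and PLCG1 did not pass the test. By pooled CPM the differences ran from 6.59-fold for VAV1 to 5173-fold for FYB1, with GRAP2 undetected in HEK. Of 15794 genes tested with edgeR, 19% were higher in Jurkat and 43.2% were called in either direction, at an adjusted p of 0.05 by Benjamini and Hochberg. The median log2 difference, Jurkat minus HEK, was 8.34 over the 9 genes and -0.07 over all genes tested. The 8 calls held without each pure library in turn and under each other filter, tool and scaling to the genes of a library that was tried.

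Positions of the genes are those of GENCODE 44 on GRCh38. LCK, the kinase that starts the cascade, at chr1:32251244-32286165, stood at 1.59 and 1.12 CPM in pure HEK and at 152 and 141 CPM in pure Jurkat. The log2 difference was 7.00 ± 0.30 (SE, n = 2 against 2; edgeR adjusted p = 0.00064). The pooled counts, 32 in HEK and 1556 in Jurkat, gave a ratio of CPM of 112 with an exact 95% counting interval of 79.1 to 164. Both HEK libraries held more than 3 counts of LCK, at 15 and 17, so that it was detected there at a low level. A small RNA gene lies on the opposite strand within LCK, and whether the counting used strand is not given in the sources used here.

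ZAP70, the second kinase, at chr2:97713576-97739862, had 1 count in each pure HEK library. In pure Jurkat it reached 33.8 and 25.3 CPM, and the ratio of pooled CPM was 355, with a wide counting interval of 97.5 to 2945 (adjusted p = 0.00064, edgeR). The libraries of the lines did not overlap.

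Among the scaffolds and adaptors, LAT (chr16:28984826-28990784) was the one with more than a few counts in HEK, at 2.43 and 1.75 CPM against 52.5 and 51.0 CPM in Jurkat. Its log2 difference was 4.88 ± 0.28 (SE; edgeR adjusted p = 0.000643), or 25.7-fold by pooled CPM. A pair of unnamed long noncoding genes overlaps LAT, 1 of them on the same strand. LCP2 (chr5:170246233-170297815) had 1 count in each HEK library and 24.6 and 28.9 CPM in Jurkat, a ratio of 333 with a counting interval of 91.4 to 2764. Both differences were far larger than the gap between libraries of a line.

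GRAP2, at chr22:39901084-39973721, was not detected in HEK, with 0 counts in both libraries, and stood at 99.8 and 83.5 CPM in Jurkat. With 3 counts over the HEK group as the floor, it was at least 741-fold higher in Jurkat. FYB1, at chr5:39105252-39274528 and overlapping a pseudogene, stood at 1385 and 1172 CPM in Jurkat, against 0.212 and 0.264 CPM from 6 pooled counts in HEK. The ratio was 5173 with a counting interval of 2376 to 14098, and the log2 difference was 12.50 ± 0.35 (SE; edgeR adjusted p = 0.00064). TESPA1, at chr12:54948015-54984762, went from 0.317 and 0.0660 CPM, 4 counts in all, to 115 and 138 CPM, a ratio of 791 with an interval of 308 to 2905. GRAP2, FYB1 and TESPA1 were thus near or at the floor in HEK and among the 5 highest of the set in Jurkat on the per-length scale given further on.

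The effectors differed least. VAV1 (chr19:6772708-6857366), a guanine nucleotide exchange factor, was present in HEK at 3.81 and 3.69 CPM and rose to 24.8 and 24.5 CPM in Jurkat, with a log2 difference of 2.94 ± 0.22 (SE; edgeR adjusted p = 0.00101). PLCG1 (chr20:41136960-41196801) stood at 37.6 and 36.3 CPM in HEK and at 31.4 and 38.8 CPM in Jurkat, so that the lines overlapped. Its log2 difference was 0.15 ± 0.22 (SE; edgeR adjusted p = 0.611), and its sign turned to -0.07 with library totals in place of TMM factors. PLCG1 is used by growth factor receptors in many tissues, and 5 annotated genes overlap it, some on the opposite strand.

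**Figure D1:**
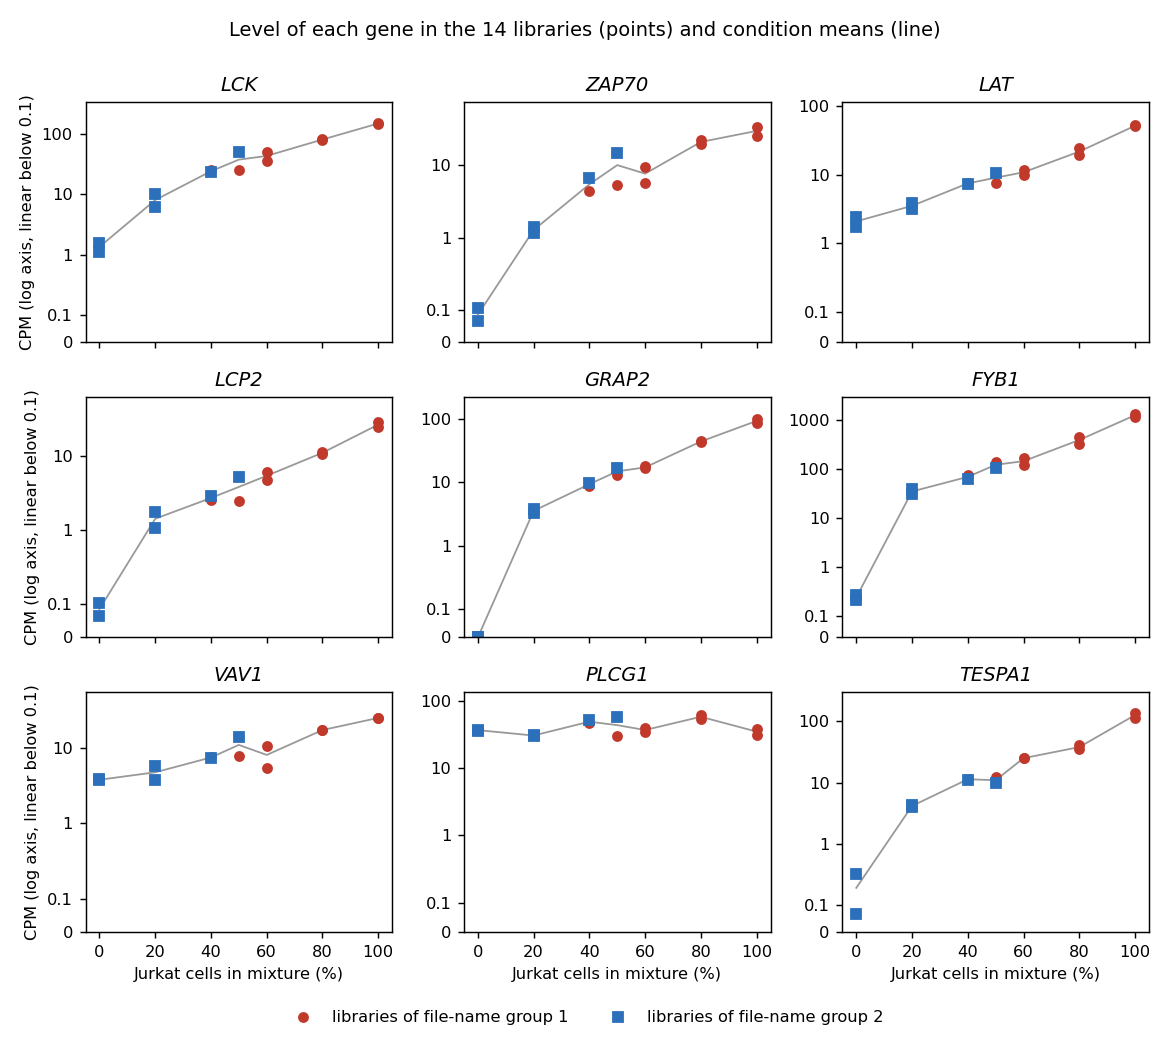
Level of each gene in CPM (vertical axis, logarithmic above 0.1 and linear below) against the percentage of Jurkat cells (horizontal axis). Points are single libraries, coloured by the group of their file names, and lines join the means of 2 libraries. PLCG1 lies between 30.3 and 62.6 CPM throughout, and GRAP2 starts at 0 in pure HEK.

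The order of the genes was read from TPM, which divide by transcript length, as deposited. In pure Jurkat FYB1 came first at 624 ± 154 TPM (SD, n = 2) and LCK followed at 80.4 ± 6.1. GRAP2 at 42.9 ± 11.7 and LAT at 36.5 ± 0.4 overlapped, TESPA1 came at 32.3 ± 4.2, and ZAP70 at 13.8 ± 3.0 overlapped with LCP2 at 12.7 ± 2.5. VAV1 at 9.59 ± 0.72 and PLCG1 at 5.80 ± 0.79 were lowest. In pure HEK PLCG1 led at 6.99 ± 0.11 TPM. VAV1 at 1.71 ± 0.02, LCK at 1.46 ± 0.42 and LAT at 1.36 ± 0.85 overlapped there as neighbours, and the other 5 genes were at or under 0.07 TPM on average. In Jurkat the adaptor FYB1 was thus the most abundant per length and the lipase PLCG1 the least. Without division by length, mean CPM in pure Jurkat put PLCG1 at 35.1, above ZAP70 at 29.5, LCP2 at 26.7 and VAV1 at 24.7. TESPA1 at 127 CPM then lay above GRAP2 at 91.6 and LAT at 51.8. The paper reports cDNA primed with oligo-dT, and whether counts grew with transcript length was not tested.

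By design each mixture held the same number of cells and the same spike-in, so that counts per spike-in count are meant to compare amounts from equal cell numbers. Gene counts per spike-in count were 10.03 times as high in pure HEK as in pure Jurkat, from 122 ± 35.4 to 12.2 ± 0.17 (SD, n = 2). On this scale 3.22% of genes were higher in Jurkat, 92.5% were lower and the median log2 difference of all genes was -3.61. The error of the spike-in ratio is shared by all genes. The equal cell number rests on the design, since these counts alone cannot tell fewer cells from less RNA per cell. Of the 9 genes, 7 remained higher in Jurkat, PLCG1 was lower and VAV1 did not pass.

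PLCG1 gave 5.55 and 3.54 counts per 1000 spike-in counts in HEK and 0.380 and 0.479 in Jurkat, a log2 difference of -3.40 ± 0.56 (SE; edgeR adjusted p = 3.02e-09), close to the median of all genes. VAV1 gave 0.562 and 0.360 in HEK and 0.300 and 0.302 in Jurkat, and its log2 difference turned from 2.94 to -0.59 ± 0.58 (edgeR adjusted p = 0.313). LAT gave 0.359 and 0.170 against 0.634 and 0.628, a log2 difference of 1.32 ± 0.60 (edgeR adjusted p = 0.0278). That call was lost without HEK replicate 2 and without either Jurkat library, with adjusted p of 0.123, 0.11 and 0.11. LCK remained higher by 3.46 ± 0.62 and FYB1 by 9.12 ± 0.78 on the log2 scale. The values of VAV1 and PLCG1 thus changed sign with the scaling, and of these the one past the threshold on the spike-in scale was PLCG1, while LCK, ZAP70, LAT, LCP2, GRAP2, FYB1 and TESPA1 were higher in Jurkat on both scales.

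**Figure D2:**
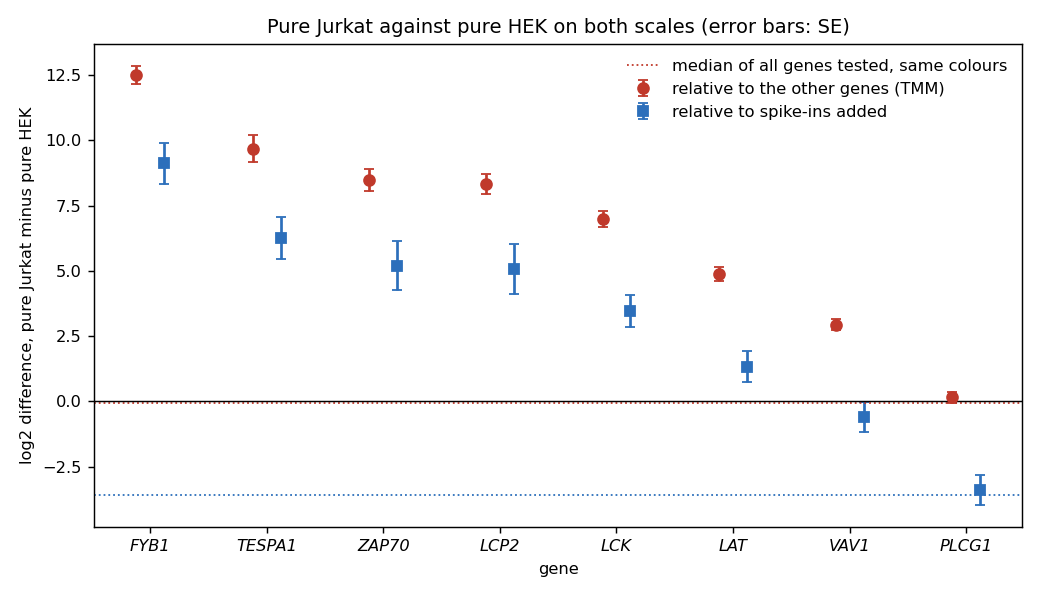
Log2 difference between pure Jurkat and pure HEK (vertical axis, Jurkat minus HEK) for 8 genes, relative to the other genes (circles) and to the spike-ins (squares). Bars are standard errors, and dotted lines are the medians of all genes tested, -0.07 and -3.61. The values of ZAP70, LCP2, TESPA1 and FYB1 are fitted on 2 to 6 pooled HEK counts, and GRAP2, at 0 counts in HEK, is left out. VAV1 crosses from 2.94 to -0.59.

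The promoters of the genes were read from RefSeq windows on GRCh38.p14 for 8 of the 9 genes. TESPA1 had no entry. The 250 bases before each of 14 start sites of these genes were searched on both strands for ETS cores CGGAAG and GGAA, the RUNX core TGTGGT, the E-box CANNTG, the GATA core AGATAA, the TATA box TATAAA and the GC box GGGCGG. VAV1 alone held CGGAAG, which 16.5% of 35116 windows hold. GGAA was in 13 of 14 windows and in 92.7% of all. TGTGGT was in windows of LCK and FYB1 and in 11.0% of all, AGATAA in 1 of FYB1 and in 9.17% of all, CANNTG in 9 of the 14 and in 61.8% of all, GGGCGG in 4 and in 42.6% of all, and TATAAA in none and in 10.7% of all.

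A longer form of the ETS site, AGGAAGT, which contains GGAA, was chosen after the promoters had been read. It was in 6 of 14 windows, of LCK, LCP2, GRAP2, VAV1 and FYB1, and in 7.01% of all windows. The sequences of 4 of these genes, all higher in Jurkat, are shown because the site recurs in them, each starting between 10 and 96 bases before the RefSeq start site. Capitals mark AGGAAGT, and only bases outside annotated exons are printed, 5′ to 3′ on the strand of the gene. A match is a description of the letters and not a measured site. The match in FYB1 lies in bases annotated as exon and is not shown.
LCK proximal promoter, chr1:32273871-32274112, plus strand: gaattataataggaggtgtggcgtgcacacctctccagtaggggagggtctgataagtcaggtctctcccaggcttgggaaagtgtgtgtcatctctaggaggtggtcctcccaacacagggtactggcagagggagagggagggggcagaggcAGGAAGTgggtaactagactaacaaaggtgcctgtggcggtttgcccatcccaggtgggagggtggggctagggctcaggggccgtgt
LCP2, chr5:170297816-170298027, minus strand: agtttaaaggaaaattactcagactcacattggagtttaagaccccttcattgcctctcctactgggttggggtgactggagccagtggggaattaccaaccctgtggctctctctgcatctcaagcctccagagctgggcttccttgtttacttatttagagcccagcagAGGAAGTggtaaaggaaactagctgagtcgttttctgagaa
GRAP2, chr22:39926354-39926590, plus strand: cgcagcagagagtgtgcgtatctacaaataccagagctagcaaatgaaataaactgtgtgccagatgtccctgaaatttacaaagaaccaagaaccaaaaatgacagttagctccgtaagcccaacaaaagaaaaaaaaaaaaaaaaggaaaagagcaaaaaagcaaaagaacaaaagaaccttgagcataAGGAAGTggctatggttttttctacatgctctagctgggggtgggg
VAV1, chr19:6772458-6772707, plus strand: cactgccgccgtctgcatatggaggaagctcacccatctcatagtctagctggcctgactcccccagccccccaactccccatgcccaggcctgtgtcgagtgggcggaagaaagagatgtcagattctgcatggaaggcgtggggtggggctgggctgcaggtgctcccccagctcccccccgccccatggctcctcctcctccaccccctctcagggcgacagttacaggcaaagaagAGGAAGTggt

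The promoter of PLCG1, whose pure libraries overlapped between lines, held 41 CpG dinucleotides in its 250 bases, more than 98.3% of all windows. The 13 windows of the other 7 genes held from 0 to 11 CpG, against a median of 11 over all windows. FYB1, with 0 and 1, lay lowest. No measurement of methylation or binding was made in these cells.

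Along the mixing series, the 8 genes that differed between lines had their lowest mean in pure HEK and their highest in pure Jurkat. LCK stood at 6.07 and 9.95 CPM with 80% HEK cells, 22.9 and 25.0 with 60%, 24.8 and 49.5 with 50%, 35.6 and 49.9 with 40%, and 78.3 and 81.3 with 20%. FYB1 stood at 38.6 and 31.6, 62.3 and 77.4, 141 and 106, 169 and 124, and 466 and 330 CPM in the same order of conditions. Both went up at each of the 6 steps by their means. As a part of its level in pure Jurkat, LCK gained earlier and FYB1 later. On the log2 scale FYB1 rose more at the first step, by 7.19 against 2.64 for LCK.

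ZAP70 stood at 1.38 and 1.16 CPM with 80% HEK cells, 6.53 and 4.33 with 60%, 5.33 and 14.6 with 50%, 5.72 and 9.51 with 40%, and 19.4 and 22.3 with 20%. GRAP2 stood at 3.30 and 3.75, 9.70 and 8.81, 12.8 and 16.7, 16.4 and 17.7, and 44.9 and 42.1 CPM. GRAP2 was thus seen in all 10 mixed libraries while it was absent from the counts of pure HEK. LAT ranged from 3.15 to 24.4 CPM in the mixed libraries, LCP2 from 1.09 to 11.6 and TESPA1 from 3.96 to 41.3. VAV1 stood between 3.69 and 17.3 CPM there, and 1 library with 80% HEK cells did not exceed the mean of pure HEK. PLCG1 ranged from 30.3 to 62.6 CPM, with its highest mean at 20% HEK cells, above both pure lines.

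Between neighbouring conditions, edgeR called members at both ends of the series and at none of the 4 middle steps. From 100 to 80% HEK cells, LCK, ZAP70, LCP2, GRAP2, FYB1 and TESPA1 rose, while 0.941% of 19129 genes did. From 20 to 0% HEK cells, LCK, LAT, LCP2, GRAP2, FYB1 and TESPA1 rose, against 7.65% of all genes. The first step added 20% Jurkat cells, and there the log2 difference was 2.64 ± 0.35 for LCK (SE; edgeR adjusted p = 0.00192) and 7.19 ± 0.49 for FYB1 (edgeR adjusted p = 3.35e-05). LAT and VAV1, which HEK cells express at a few CPM, changed by 0.85 ± 0.27 (edgeR adjusted p = 0.40) and 0.38 ± 0.32 (edgeR adjusted p = 1) and were not called.

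At the last step TESPA1 differed by 1.86 ± 0.29 (SE; edgeR adjusted p = 0.000606), FYB1 by 1.80 ± 0.32 (edgeR adjusted p = 0.00176) and LCK by 1.00 ± 0.29 (edgeR adjusted p = 0.0244). ZAP70 and VAV1 were not called there, at 0.63 ± 0.36 and 0.66 ± 0.29 (edgeR adjusted p = 0.216 and 0.119). PLCG1 was -0.61 ± 0.25 (edgeR adjusted p = 0.0867). Of the 12 calls, 6 at each end, those at the first step fell to 3, of GRAP2, FYB1 and TESPA1, without HEK replicate 2. ZAP70 lost its call at the first step without any 1 of the 4 libraries of that step. LCK lost its call at the last step without 20% HEK replicate 1 or 2 and without either Jurkat library, and LCP2 without 20% HEK replicate 2. In order of falling HEK percentage, the 9 genes gave 8, 4, 1 and 8 differences at an unadjusted p under 0.05 in the middle steps. The share of all genes at this unadjusted threshold was not counted, so these numbers have nothing to be set against. At the adjusted threshold edgeR called none of the 9 genes, and 0%, 0%, 0% and 0.0157% of all genes as higher. The DESeq2 test called 4, 0, 1 and 5 of the 9 genes at these steps, and its share over all genes was not counted.

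The share of RNA that came from Jurkat cells can be read from each gene as the weight that mixes its mean pure levels into the level of a library. Under additive mixing all genes give the same share. Over 200 marker genes, 100 from each line and none of them in the lists used here, the median share was 6.02 and 3.43% with 80% HEK cells, 4.85 and 5.61% with 60%, 15.5 and 4.85% with 50%, 18.6 and 11.7% with 40%, and 33.7 and 34.4% with 20%. These shares lay below the percentage of Jurkat cells in every mixed library. The markers of each line taken alone gave unlike shares, 9.34% from Jurkat and 30.2% from HEK markers in 50% HEK replicate 1 and 6.65 and -6.58% in 60% HEK replicate 1. PLCG1 is left out of this comparison, since its pure libraries overlap.

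The members gave different shares in the same libraries. With 20% HEK cells, FYB1 gave 36.4 and 25.8%, TESPA1 27.3 and 32.5%, and LAT 34.3 and 44.9%. LCP2 gave 43.1 and 40.0% and GRAP2 49.0 and 45.9%. LCK gave 52.9 and 55.0%, VAV1 62.5 and 64.7%, and ZAP70 65.4 and 75.3%. TESPA1 was thus below the marker share in both libraries, FYB1 on either side of it, and the other 6 genes, the kinases and VAV1 farthest, above it in both. Against Jurkat markers alone, at 27.8 and 29.1%, TESPA1 lay on either side, and against HEK markers alone, at 40.4 and 38.8%, LAT did. With 60% HEK cells, FYB1 gave 4.85 and 6.04% and TESPA1 8.69 and 8.96%, whereas LCK gave 14.9 and 16.3% and ZAP70 21.9 and 14.4%.

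The ratio of a pair of genes within a library needs no scaling between libraries. Counts of LCK per count of FYB1 were 0.110 and 0.121 in pure Jurkat. They were 0.168 and 0.246 with 20% HEK cells, 0.211 and 0.402 with 40%, and 0.176 and 0.466 with 50%. With 60% HEK cells they were 0.368 and 0.322, and with 80% 0.157 and 0.315. The ratio thus lay above pure Jurkat in each mixed library. It did not rise steadily with the HEK percentage, and libraries of the same mixture lay apart. The ratio is above 4 in pure HEK, on 2 and 4 counts of FYB1, so that under additive mixing HEK RNA raises it. With 60% HEK cells, additive mixing at the marker shares gives 8.4 and 9.5 CPM of LCK and 62.2 and 71.9 of FYB1. FYB1 was measured there at 62.3 and 77.4 CPM. The part of HEK RNA in the higher ratio of the mixtures was not tested. LCK in pure HEK was 1.59 and 1.12 CPM, against 22.9 and 25.0 CPM with 60% HEK cells and 78.3 and 81.3 CPM with 20%.

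**Figure D3:**
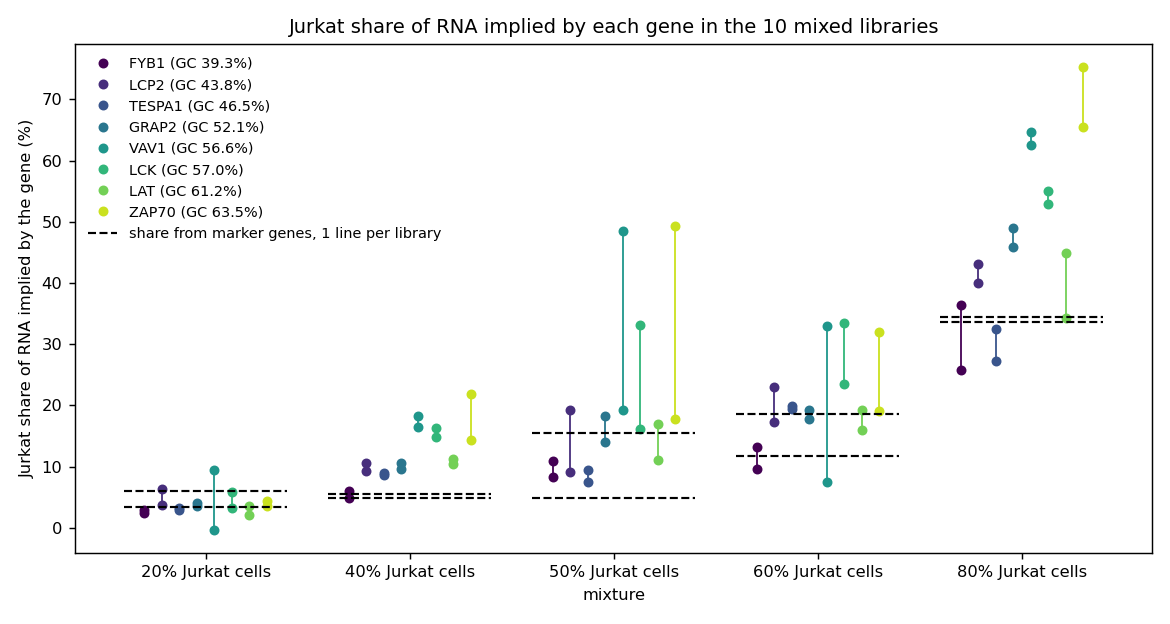
Jurkat share of RNA in percent (vertical axis) implied by each of 8 genes in the 2 libraries of each mixture (joined points), ordered and coloured by transcript GC content. Dashed lines are the shares from 200 marker genes, 1 line per library. With 80% Jurkat cells ZAP70 lies at 65.4 and 75.3% and FYB1 at 36.4 and 25.8%.

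The departure of each gene from additive mixing was tested with edgeR over the 10 mixed libraries, with the marker shares and with the error of the pure means in the test. No gene was called among 15717 tested, 0%, and 567 of them had an unadjusted p under 0.05. Among the 9 members 3 did. ZAP70 was above the additive level by 1.42 ± 0.32 on the log2 scale (SE; edgeR adjusted p = 0.993), LCK by 1.10 ± 0.26 and VAV1 by 0.55 ± 0.19, each with the same adjusted p. ZAP70 and LCK lay above in 9 of 10 mixed libraries, VAV1 and LCP2 in 8 and GRAP2 in 7. LAT and PLCG1 lay above in 6, TESPA1 in 5 and FYB1 in 4. GRAP2 was at 0.64 ± 0.25, LCP2 at 0.60 ± 0.25, LAT at 0.32 ± 0.20, PLCG1 at 0.26 ± 0.18, TESPA1 at 0.18 ± 0.27 and FYB1 at -0.14 ± 0.20. None of these departures passed the correction over all genes. Leaving out 1 library brought ZAP70 to 0.94 and LAT to 0.17 (50% HEK replicate 2). Without Jurkat replicate 2 GRAP2 was at 0.36, and without Jurkat replicate 1 LCP2 was at 0.30. Shares from HEK markers alone put LCK at 5.48 and ZAP70 at 3.70. These shares were negative in some libraries, at -6.58% in 60% HEK replicate 1 and -2.89% in 50% HEK replicate 2. The expected level was held there at a lowest value of 0.2 CPM, on which the values 5.48 and 3.70 partly rest.

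GC content of the transcripts moved with the implied share. In the canonical GENCODE transcript it was 39.3% for FYB1, 43.8% for LCP2, 46.5% for TESPA1, 52.1% for GRAP2, 56.6% for VAV1, 57.0% for LCK, 61.2% for LAT and 63.5% for ZAP70. Over these 8 genes the share at 20% HEK cells and GC content had a Pearson r of 0.74 and a Spearman coefficient of 0.64, and share and transcript length an r of -0.57. All of these genes were read from the same libraries. Over 224 other genes at 20 CPM or more in Jurkat and 20-fold higher there, r was 0.27 with GC content and -0.36 with length. Split into 4 classes of 56 genes by GC content, their median share at 20% HEK cells was 28.5 and 27.8% in the lowest class, 34.5 and 35.5% in the next, 38.1 and 36.7% in the next and 44.6 and 41.9% in the highest. Measured against the genes of its own GC class, a comparison added after the values were seen, ZAP70 was at 0.59 ± 0.21 and LCK at 0.39 ± 0.17 (SE, log2), and LAT was at -0.13 ± 0.15. The part of GC content or length in the departures was not tested.

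**Figure D4:**
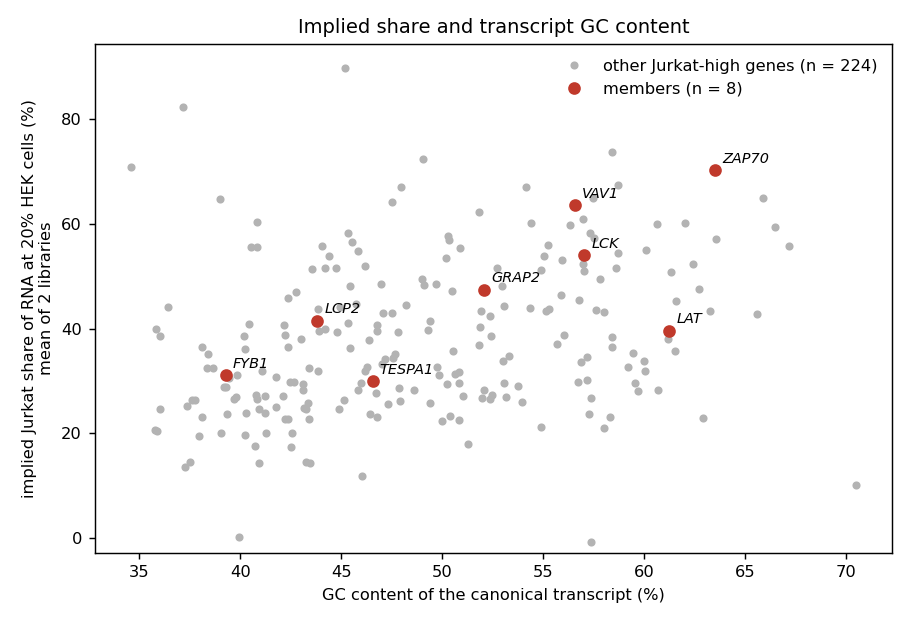
Jurkat share of RNA in percent implied by each gene with 20% HEK cells (vertical axis, mean of 2 libraries) against GC content in percent of its canonical transcript (horizontal axis). Red points are 8 members and grey points 224 other genes high in Jurkat. FYB1, at 39.3% GC, and ZAP70, at 63.5% GC, lie at the low and the high end of the members.

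The 50% mixture was the least alike between its libraries. LCK stood at 24.8 and 49.5 CPM, ZAP70 at 5.33 and 14.6, LCP2 at 2.51 and 5.21, VAV1 at 7.78 and 13.9 and PLCG1 at 30.6 and 57.2, higher in replicate 2. FYB1 at 141 and 106 CPM and TESPA1 at 12.2 and 9.69 were higher in replicate 1. The names of the deposited files fall into 2 groups, which the labels do not explain. Both pure HEK libraries lie in one and both pure Jurkat libraries in the other, so that line and group cannot be told apart. The conditions with 60 and 50% HEK cells have a library in each group. With the group as a term over all libraries, edgeR called 0 of 19129 genes, 0%. ZAP70 was 0.88 ± 0.28 higher on the log2 scale in the group of the pure HEK libraries (SE; edgeR adjusted p = 0.747). Within the group of the pure Jurkat libraries alone, the lower pure Jurkat library exceeded the 60% HEK library 5.67-fold for LCK, 5.85-fold for ZAP70, 3.23-fold for VAV1 and 15.1-fold for FYB1, whereas the ratio was 0.672 for PLCG1.

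Likeness of profiles was measured by the symmetric coefficient of determination, the smaller of the R2 values of a line through the origin fitted each way round, after each gene was divided by its sum over libraries. Proportional profiles give 1, and a fit worse than a flat line gives a value below 0. Over the 14 libraries the median of the pairs among the 8 genes that differed between lines was 0.892, from 0.258 for VAV1 with FYB1 to 0.973 for GRAP2 with LAT. PLCG1 was below 0 with each of the other 8 genes, from -3.66 with VAV1 to -10.90 with FYB1. The pure libraries weigh in these values, and over the 10 mixed libraries the median was 0.821. Among 4715 genes compared, those outside the set with a profile most like the mean of the members included CD3D at 0.985, ADA at 0.980, TMSB4X at 0.970 and TRBC1 at 0.965. CD3D and TRBC1 encode chains of the T cell receptor complex.

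Many of the 9 genes belong to families with members in other cells. Of 19 listed paralogues, 13 were tested in the pure lines, 4 were higher in Jurkat, 2 were lower and 7 did not pass, against 19% higher and 24.2% lower of all genes, with a median log2 difference of 0.29. Per spike-in 2 were higher and 9 lower, with a median of -3.24, against 3.22% higher and 92.5% lower of all genes. Among the relatives of LCK, FYN stood at 136 and 146 CPM in HEK and at 173 and 130 CPM in Jurkat and did not pass, with a log2 difference of 0.33 ± 0.23 (SE; edgeR adjusted p = 0.289). LYN, a kinase of B and myeloid cells among others, went the other way from LCK, at 60.0 and 51.1 CPM in HEK and 0.671 and 1.13 CPM in Jurkat. YES1 was at 41.8 and 23.0 CPM in HEK and at 17.9 and 10.9 in Jurkat (edgeR adjusted p = 0.113). LCK and LYN were thus called in opposite directions.

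SYK, the relative of ZAP70 used by B cells, was higher in Jurkat, at 74.7 and 93.8 CPM against 13.5 and 13.7 in HEK, a log2 difference of 2.86 ± 0.24 (SE; edgeR adjusted p = 0.00119). Per spike-in it did not pass, at -0.68 ± 0.52 (edgeR adjusted p = 0.192). VAV3 was at 49.2 and 49.8 CPM in Jurkat and at 4.23 and 4.09 in HEK. It too did not pass per spike-in, at 0.26 ± 0.56 (edgeR adjusted p = 0.647). GRB2, the widely expressed relative of GRAP2, stood at 237 and 270 CPM in Jurkat and 164 and 210 in HEK and did not pass (edgeR adjusted p = 0.0687). ITPRID2, related to TESPA1, stood at 20.4 and 50.7 CPM in HEK and at 21.3 and 17.7 in Jurkat. BLK, GRAP and VAV2 are named for their calls after the values were seen. BLK and GRAP were higher in Jurkat, the latter with 0 counts in HEK, and VAV2 was lower in Jurkat, at 4.03 and 3.55 CPM against 9.10 and 10.7.

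**Figure D5:**
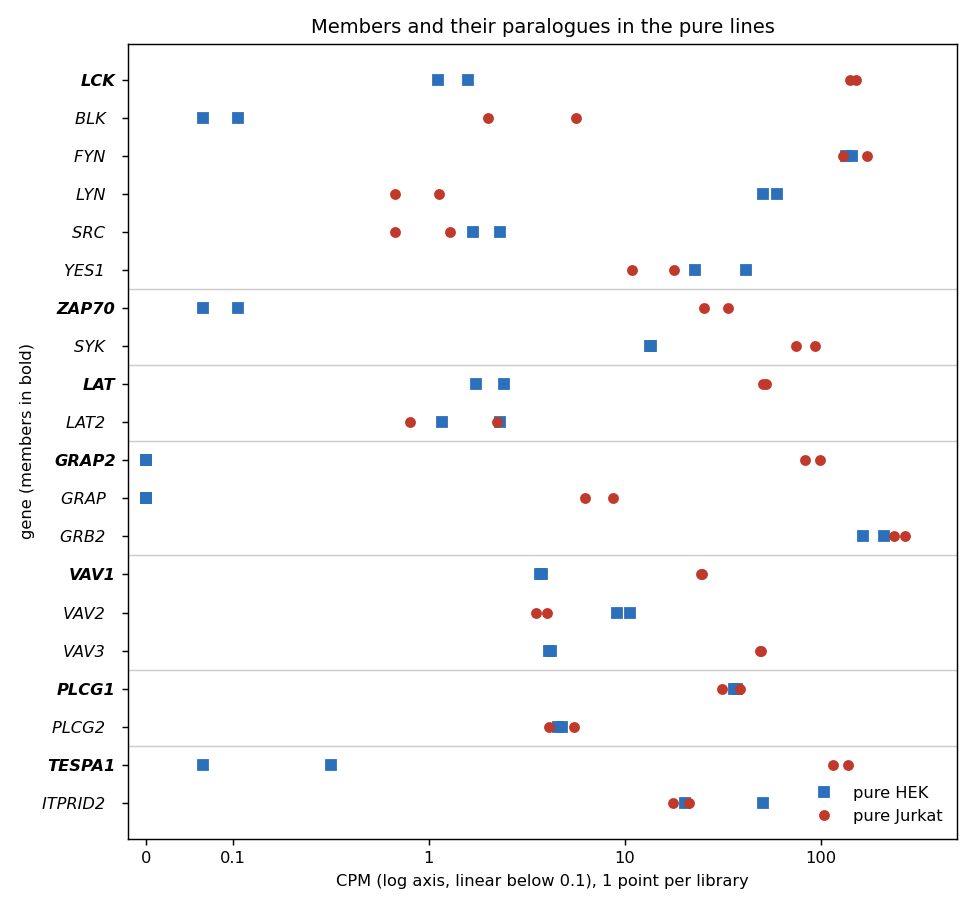
The 7 members (bold) that have such relatives and their paralogues with at least 1 CPM in a pure library, in CPM (horizontal axis, logarithmic above 0.1 and linear below), with 1 point per pure HEK (squares) and pure Jurkat (circles) library. LYN lies at 60.0 and 51.1 CPM in HEK, where LCK lies at 1.59 and 1.12 CPM.

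The other genes of the pathway were taken from lists made by name, also with earlier results of these data known. Of 10 receptor chains and coreceptors, 7 were tested and all 7 were higher in Jurkat, with a median log2 difference of 9.10. Of all genes, 19% were higher and 24.2% lower. Per spike-in, 7 of these genes were higher and 0 lower, against 3.22% and 92.5% of all genes. CD3G stood at 379 and 511 CPM and CD3D at 260 and 238 CPM in Jurkat, and both were under 2 CPM in HEK. CD2, CD247 and CD3E stood at 100.5 and 109, 73.6 and 82.8, and 34.5 and 43.8 CPM in Jurkat. The coreceptors CD4, CD8A and CD8B were too low to be tested, at 1.71 CPM or less in each pure library. The genes that bring LCK to the receptor in mature T cells were thus hardly measured in these Jurkat cells, while the chains that LCK acts on were.

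Of 27 partners and downstream genes, 26 were tested, 19 were higher in Jurkat, 2 were lower and 5 did not pass. Of all genes, 19% were higher and 24.2% lower. The median log2 difference of the 26 was 2.68. The 5 with the highest mean CPM among those higher were the actin regulator EVL (274 and 287 CPM in Jurkat, 64.8 and 48.1 in HEK), PIK3R1 (236 and 179, 40.1 and 34.1), ITPR2 (221 and 168, 58.5 and 68.4), RASGRP1 (98.3 ± 0.5 and 2.85 ± 0.73, mean and SD) and NCK1. NCK1 stood at 24.2 and 150 CPM in Jurkat, so that its libraries lay far apart. SKAP2 was lower, at 0.671 and 0.580 CPM in Jurkat against 180 and 132 in HEK, and so was SOS1, at 25.7 and 19.2 against 48.1 and 43.7. SKAP2 is an adaptor that binds FYB1, as SKAP1 does in T cells. Per spike-in, 10 of these genes were higher in Jurkat and 12 lower, against 3.22% and 92.5% of all genes. Of the 5 genes named as higher, EVL (log2 difference -1.05 ± 0.51, SE) and ITPR2 (-1.69 ± 0.52) were called lower on that scale. PIK3R1 and NCK1 did not pass there, and RASGRP1 remained higher.

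Of 23 listed regulators, most of them known to restrain the cascade, all were tested. In Jurkat 16 were higher, 1 was lower and 6 did not pass, against 19% higher and 24.2% lower of all genes. The median log2 difference of the 23 was 4.29. PTPRC (CD45), the phosphatase that removes the inhibitory phosphate of LCK and is needed for receptor signaling, stood at 1363 and 1670 CPM in Jurkat and at 0.846 and 0.198 in HEK. SLA was at 382 and 198 CPM in Jurkat, LAX1 at 98.2 and 116, DGKA at 38.9 and 38.8 and DGKZ at 27.6 and 36.6. PSTPIP2 was lower, at 0.224 and 0.322 CPM against 12.6 and 8.21 in HEK. Per spike-in, 11 of these genes were higher and 8 lower, against 3.22% and 92.5% of all genes. On that scale PTPRC, SLA and LAX1 remained higher, DGKA did not pass and DGKZ was called lower, at -2.28 ± 0.55 (log2, SE).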

How the data were processed

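RNA was measured in 14 libraries of HEK-293T and Jurkat cell mixtures, poly(A)-selected, with ERCC spike-ins. The authors aligned reads to GRCh38 and the spike-in sequences with STAR 2.6.1b and counted them with RSEM 1.3.1, per the labels. Expected counts were deposited without normalization, beside TPM that are scaled over genes together with spike-ins. Their annotation and the strand setting of the counting are not given in the sources used here. The tests took the expected counts rounded to integers.

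Symbols, coordinates and GC content were taken from GENCODE 44 by identifier, with 57754 of 58440 genes matched and at most 0.327% of counts unmatched. The 92 spike-in rows stayed out of CPM and library sizes. The series table repeats the counts of the libraries and was not used. Groups were taken from the labelled HEK percentage, and replicates were numbered in accession order.

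The main test was edgeR 4.0.16 (quasi-likelihood, TMM, filterByExpr, Benjamini-Hochberg at 0.05, R 4.3.3), for the 2 pure lines against each other, per spike-in total, for 6 neighbouring pairs over all 14 libraries, and for additive mixing. The last was planned without the error of the pure means. On simulated data that version called 4651 unchanged genes, so the error was added, after which it called 8. On simulated data of 15210 genes the pure line test found 36% of 2-fold and 92% of 4-fold changes, and the test of 20 against 0% HEK cells, on 15794 genes, 10 and 54%. All simulated counts had the same fixed dispersion for every gene and no GC or library effects beyond depth. The rates of true and false calls therefore need not hold in the real libraries. DESeq2 1.42.0, other scalings and filters, other marker sets and leaving out each library were tried. Counting intervals are exact and, like the floor of 3 counts, cover counting error only. The members and the lists were chosen with earlier results of these data known. All 9 members are named in each comparison, and of other lists up to 5 called genes in each direction by mean CPM, paralogues at 10 CPM or more in a pure line, and the 5 genes of most like profile. Some items these rules would name are not reported here.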

Additional observations from a re-analysis of the deposited data

How the results depend on the processing

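The 8 members higher in Jurkat kept their call under all 10 alternatives tried for the pure lines. No paired analysis was possible because the labels give no replicate numbers shared between conditions. The difference of PLCG1, not called in any of them, changed sign with library totals in place of TMM (-0.075), without a filter on low counts (-0.0043) and without Jurkat replicate 2, with a range of -0.029 to 0.31 over the libraries left out. Genes called between the pure lines numbered 6827, and between 3131 and 6227 without a single library, fewest without either HEK library. Per spike-in, leaving out a library gave LAT a log2 difference of 0.81 to 1.92. The 12 calls of members between neighbouring conditions became 22 with DESeq2 and 20 without a filter on low counts, and 9 to 14 without a single library, with 0 to 1 call of a member lower with fewer HEK cells, which was PLCG1 at the last step without either 50% HEK library.

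For additive mixing, the test as planned, without the error of the pure means, called 2819 genes and 4 members, LCK at 1.10, ZAP70 at 1.42, GRAP2 at 0.64 and VAV1 at 0.55, against none in the main test. Values not called that changed sign were LAT (-0.13) and TESPA1 (-0.061) against genes of the same GC class, FYB1 with the mixed percentages and the spike-in coefficient (0.0082) or with HEK markers alone (6.93 ± 9.30), and TESPA1 without Jurkat replicate 1, with a range of -0.12 to 0.27 over the libraries left out. The FYB1 value from HEK markers alone rests in part on the lowest expected level of 0.2 CPM, met where those markers gave negative Jurkat shares. The median likeness among 8 members was 0.82 over the mixed libraries alone and 0.89 over all. The DESeq2 test was not run for additive mixing. The cause of these changes was not tested. Depth limits the HEK levels of ZAP70, LCP2, GRAP2, TESPA1 and FYB1, which rest on 6 counts or fewer.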
